A study of Mus musculus with 15 samples.

Results

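Protocadherins are cadherin-related cell surface proteins, and the genes described here are all those whose symbol starts with Pcdh and whose deposited biotype is protein_coding. The rule found 69 genes of 49585 in the count table, of which 57 lie in the alpha, beta and gamma clusters and 12 are single genes elsewhere. The clusters lie in that order on the plus strand of chromosome 18 (mm10), with 14 alpha members at chr18:36930184-37187661, 22 beta members at chr18:37264938-37524479 and 21 gamma members at chr18:37661793-37841873. The single genes are Pcdh15 on chromosome 10, Pcdh8, Pcdh9, Pcdh17 and Pcdh20 on 14, Pcdh10 and Pcdh18 on 3, Pcdh7 on 5, Pcdh1 and Pcdh12 on 18, and Pcdh11x and Pcdh19 on X.

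In the alpha and gamma clusters each isoform has its own promoter and variable exon, which is spliced to constant exons that all isoforms of the cluster share, whereas beta genes have no constant exons. The variable exons code for the extracellular part, by which like isoforms on neighbouring cells recognise each other, and promoter choice depends on CTCF, cohesin looping and DNA methylation. The single genes code for separate adhesion proteins, among them the delta-1 (Pcdh1, Pcdh7, Pcdh9, Pcdh11x) and delta-2 (Pcdh8, Pcdh10, Pcdh17, Pcdh18, Pcdh19) subfamilies of the developing brain.

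RNA was sequenced from 5 groups of 3 libraries, all labelled as strain C57BL/6. TDECs with sertraline were 005 cells differentiated for 5 days and then given 5 μM of the antidepressant sertraline, with RNA taken 24 h later. 005 is a mouse glioma stem cell line kept in serum-free stem cell medium. TDECs are tumour-derived endothelial cells grown from 005 in EGM-2 medium at 1% oxygen, and were taken on day 2 and, untreated, at a time that the labels do not give and that the study's methods place on day 5. MBMECs are purchased mouse brain microvascular endothelial cells grown in a medium with serum, for which the labels give no low oxygen. Medium and oxygen therefore go with cell type among 005, TDECs and MBMECs and cannot be told apart from it. The treated TDECs may be a day older than the untreated ones, and the study calls the libraries with and without sertraline biological replicates. For the other groups no source used here says that libraries came from separate cultures, so p-values measure the spread between libraries, which may be technical.

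Libraries held 11283680 to 17093061 counts. Replicate 3 of 005, replicate 3 of day 2 and replicate 2 with sertraline stood apart from their groups, since they differed from their partners by a chi-square of 6.51 to 10.9 for each gene, where all other pairs gave 2.09 to 4.67. The 15 endothelial markers summed to 28.5 to 35.1 CPM, counts scaled to a common library size, with sertraline, 10.1 to 15 CPM in 005, 23.5 to 32.9 CPM on day 2, 48.9 to 56.4 CPM on day 5 and 10090 to 10320 CPM in MBMECs. Of these 15 markers 7 were tested on day 5 against 005, with a median log2 fold change of -0.24. Among the 7 the receptors Flt1 and Kdr were called higher and none lower. Flt1 and Kdr averaged 40.8 and 3.96 CPM on day 5 and 1.69 and 1.20 CPM in 005. Cldn5 and Sox17 had no count in any library of 005 or TDECs. The neural and glioma stem cell markers Sox2 and Olig2 had none in MBMECs, and all 10 markers of that list averaged at least 1 CPM on day 5. These 10 summed to 1736 to 1795 CPM on day 5 and to 3442 to 3549 CPM in 005. On day 5 against 005, 1 of them was called higher and 4 lower, where 13.1% of all genes were called higher and 10.4% lower. The name TDEC is used here as the label gives it.

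How reads of the clusters were assigned was checked on the table itself, with the exons of GENCODE M21. Bases of exon that no other gene shares on the same strand made up 8.56% to 61.1% of an alpha gene, 33.2% to 68.5% of a gamma gene, 90.3% to 100% of a beta gene and 100% of every single gene. Of 654 genes without such a base, only 18 had 10 counts or more over all libraries, so reads in shared exons were assigned to no member and an alpha or gamma count reflects the variable exon. Overlaps between the strands were not left out in this way. Of 242 genes nested in exons on the other strand 215 had counts, so such reads were assigned to a gene. Over 142 of them with a partner above 1000 counts, the density of counts was 1.29 times that of the partner (median, middle 50% of pairs 0.541 to 1.95). A member and a gene antisense to it therefore cannot be told apart. This holds for Pcdhgc3, whose partner BC037039 had 0.697 to 0.78 of its counts in each of the 15 libraries. It also holds for parts of Pcdhga1, Pcdhga12, Pcdhgb7, Pcdhb12, Pcdh7, Pcdh8, Pcdh10 and Pcdh19. The symbol Pcdha11 occurs for 2 gene IDs, and both had under 10 counts in every library. Of the 69 members, 52 had at least 10 counts in a library: 2 of 14 alpha, 21 of 22 beta, 17 of 21 gamma and 12 of 12 single genes.

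The summed level of each cluster was lower on day 5 than in 005 and on day 2, and that of the single genes was lower than on day 2 but not than in 005. Beta members summed to 245 ± 13.9 CPM in 005, 212 ± 21 CPM on day 2 and 114 ± 2.21 CPM on day 5 (SD, n = 3 each). Alpha members summed to 8.10 ± 0.457 CPM in 005, 7.52 ± 1.36 CPM on day 2 and 2.70 ± 0.536 CPM on day 5. Gamma members summed to 265 ± 29.5 CPM in 005, 287 ± 10.4 CPM on day 2 and 164 ± 5.90 CPM on day 5. For all 3 clusters the day 5 libraries lay below every library of 005 and of day 2, and the single genes summed to 254 ± 25.9, 331 ± 19.2 and 285 ± 7.12 CPM in the same order, with day 5 below every library of day 2. These sums weight the most abundant members most and were not tested, and in bulk RNA fewer cells with a transcript and less of it per cell cannot be told apart.

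**Figure D1:**
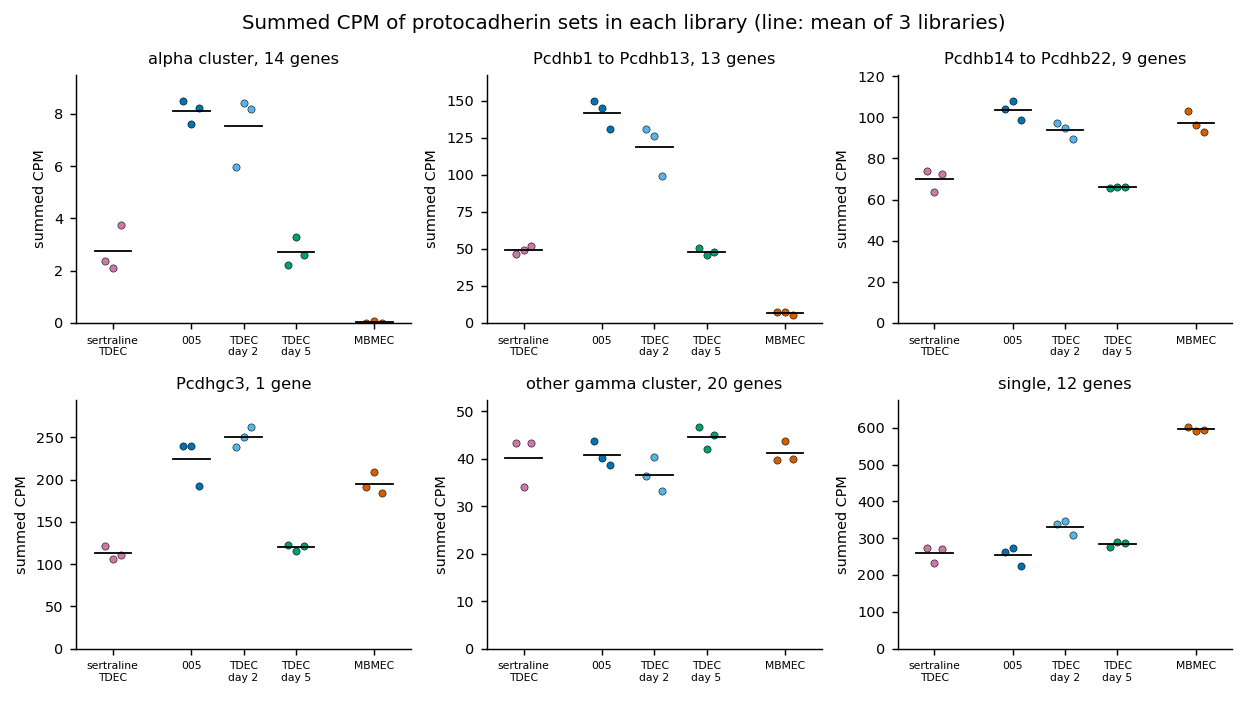
Summed CPM (y axis, scaled by TMM over all 15 libraries, each panel with its own scale) of sets of protocadherins in each library, by group (x axis); points are libraries and lines are means of 3. The alpha, Pcdhb1 to Pcdhb13, Pcdhb14 to Pcdhb22 and Pcdhgc3 panels drop on day 5. Pcdhb14 to Pcdhb22 fall from 98.8 to 107.9 CPM in 005 to 65.7 to 66.3 CPM on day 5. The 20 other gamma genes lie between 33.1 and 46.7 CPM in all 15 libraries, and in MBMECs Pcdhb1 to Pcdhb13 reach at most 7.16 CPM.

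Genes were tested one by one in the table of all genes, and a gene was called where edgeR's quasi-likelihood test gave an adjusted p under 0.05 and a fold change above 2. On day 2 against 005, 2 members were called higher and 1 lower of the 41 that passed the filter on low counts, where 5.35% of all 15344 genes tested were called higher and 4.48% lower. All 3 were single genes, and no clustered member was called. On day 5 against 005, 2 of 42 were higher and 13 lower, against 13.1% higher and 10.4% lower among all genes. Of the 32 clustered members tested none was called higher and 12 lower, and of the 10 single genes 2 were higher and 1 lower. The median log2 fold change on day 5 was -0.82 over the clustered and 0.30 over the single genes tested, and -0.01 over all genes. By cluster the median was -1.51 over 2 alpha genes, -0.85 over 21 beta genes and 0.06 over 9 gamma genes. Of the 9 gamma genes 4 were below 0. Without replicate 3 of 005 the counts were 1 higher and 16 lower.

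Clustered members were called lower on day 5 against day 2 as well. Set against day 2, day 5 had 3 members higher and 14 lower of 40 tested, where 11.1% of all genes were called higher and 9.35% lower. Of those, 2 of the higher and 13 of the lower were among the 31 clustered members, whose median log2 fold change was -0.60 against 0.00 over all genes. By cluster the median was -0.70 over 21 beta genes and 0.35 over 8 gamma genes, and over the 9 single genes tested, of which 7 were below 0, it was -0.43. Without replicate 3 of day 2 the counts were 2 higher and 15 lower. The comparisons against 005 and against day 2 share the day 5 libraries, so they are not separate evidence. Members that were too low to test, 25 or 26 of the clustered genes in these 3 comparisons, are not in these counts.

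**Figure D2:**
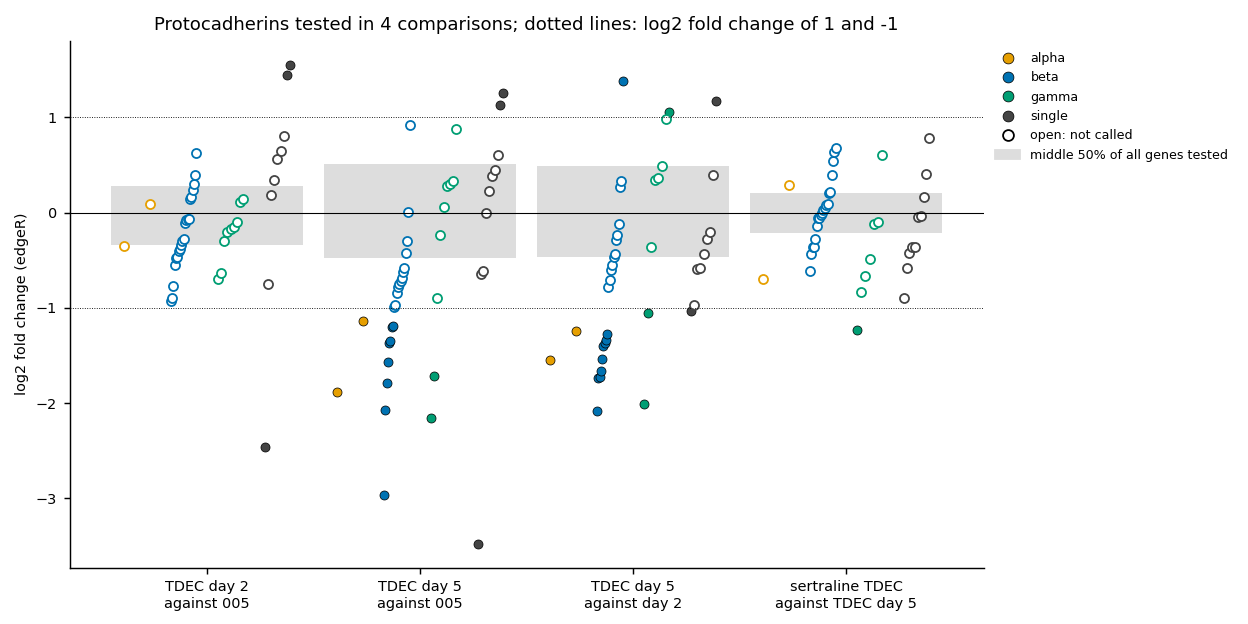
Log2 fold change by edgeR (y axis) of every protocadherin that passed the filter in 4 comparisons (x axis), by set; filled points were called, open points were not, and the grey band holds the middle 50% of all genes tested. On day 5 against 005 the 12 clustered calls all lie below -1, and with sertraline a single filled point, a gamma gene, lies below -1.

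The beta cluster held 8 of the 12 clustered calls on day 5 against 005, and 21 of the 32 clustered genes tested. Pcdhb5, its most abundant member in 005 per length, had 47.0, 46.1 and 41.8 CPM in 005, 32.2, 36.9 and 23.9 CPM on day 2, and 10.9, 9.44 and 11.5 CPM on day 5. The 3 groups did not overlap, and the log2 fold change on day 5 was -2.08 ± 0.10 against 005 (SE; adjusted p = 4e-09) and -1.54 ± 0.16 against day 2 (adjusted p = 8.5e-06). On day 2 Pcdhb5 was already lower than in 005 in every library, with a log2 fold change of -0.55 that did not reach the fold required for a call (adjusted p = 0.0088).

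Pcdhb10 had the lowest log2 fold change of the clustered members on day 5 against 005. It had 17.8, 17.2 and 15.2 CPM in 005, 10.1, 10.7 and 6.36 CPM on day 2 and 1.69, 2.38 and 2.28 CPM on day 5, for a log2 fold change on day 5 against 005 of -2.96 ± 0.17 (adjusted p = 1.5e-08). Pcdhb7 was lower on day 5 alone, with 25.1, 21.8 and 19.0 CPM in 005, 27.3, 22.6 and 23.9 CPM on day 2 and 9.44, 7.06 and 5.7 CPM on day 5. Its groups in 005 and on day 2 overlapped, and day 5 lay below both (log2 fold change against 005 -1.56 ± 0.17, adjusted p = 6.5e-06). For Pcdhb3 day 2 already lay below 005, with 13.4, 13.7 and 16.6 CPM in 005, 10.2, 5.91 and 7.10 CPM on day 2 and 5.34, 7.30 and 6.19 CPM on day 5, where day 2 and day 5 overlapped.

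The calls were unevenly placed along the cluster. All 8 beta members called lower on day 5 against 005 were among Pcdhb1 to Pcdhb13, of which 12 were tested, and none was among the 9 from Pcdhb14 to Pcdhb22. The median log2 fold change was -1.27 over the tested genes of the first stretch and -0.71 over the second, so members of the second stretch were also mostly lower. This boundary was chosen after the values had been seen, and the difference between the stretches was not tested. Pcdhb14, the first gene past it, was close to the limit: it had 18.5, 23.7 and 20.1 CPM in 005, 28.9, 30.8 and 23 CPM on day 2 and 10.9, 9.6 and 10.7 CPM on day 5. It was called against day 2 (log2 fold change -1.40 ± 0.13, adjusted p = 3.8e-06) and just missed the fold against 005 (-0.99 ± 0.13, adjusted p = 2.4e-05). The placement of calls against 005 moved with the processing. With plain library totals Pcdhb14 (-1.12) and Pcdhb21 (-1.10, and -0.97 in the main fit) were called lower. Without replicate 1 of day 5 both were called as well (-1.03 and -1.33). In the first stretch the call of Pcdhb8 was lost under DESeq2 (-1.39, adjusted p = 0.063). That of Pcdhb11 was lost without replicate 2 of 005 (-0.996). Pcdhb20 overlapped between the groups, with 10.9, 11.2 and 10.5 CPM on day 5 and 8.84, 10.6 and 13.2 CPM in 005.

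A few clustered genes went the other way at low levels. Pcdhb13 had 1.69, 1.56 and 1.79 CPM on day 5 against 0.604, 0.216 and 1.16 CPM on day 2 (log2 fold change 1.38 ± 0.47, adjusted p = 0.024). The gamma gene Pcdhga12 had 2.31, 2.46 and 2.60 CPM on day 5 against 1.43, 1.51 and 0.578 CPM on day 2 (1.05 ± 0.35, adjusted p = 0.022). Neither pair of groups overlapped. Both calls were lost under DESeq2 and when single libraries were left out.

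**Figure D3:**
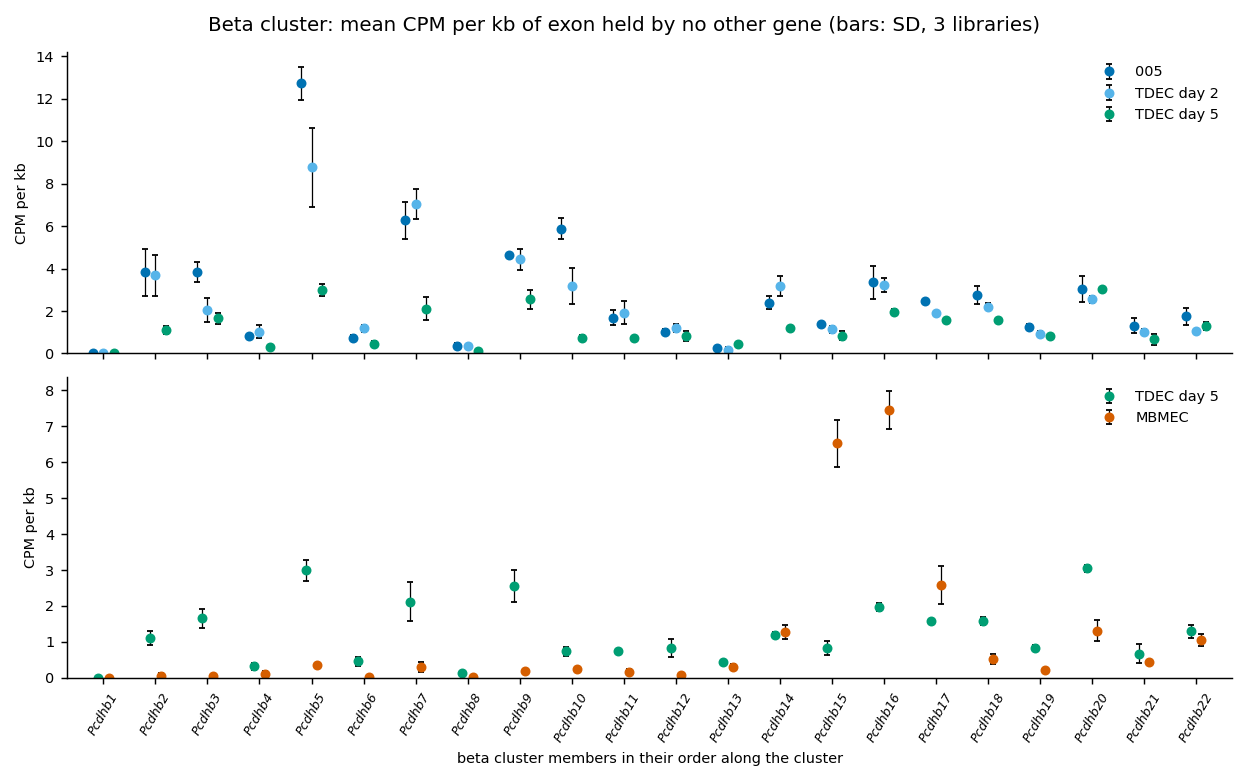
Mean CPM per kb of exon that no other gene shares (y axis) of the 22 beta cluster genes in their order along the cluster (x axis), with SD over 3 libraries as bars; the upper panel shows 005, TDEC day 2 and TDEC day 5, and the lower panel TDEC day 5 and MBMEC. Pcdhb5 at 12.7 CPM per kb in 005 is the highest point of the upper panel, and in MBMECs the level is concentrated on Pcdhb15 (6.52) and Pcdhb16 (7.44 CPM per kb).

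In the alpha cluster only Pcdhac2, a C-type isoform at the end of the cluster, and Pcdha3 reached 10 counts in a library. Pcdhac2 had 4.89, 4.46 and 5.05 CPM in 005, 2.94, 4.25 and 4.21 CPM on day 2 and 1.34, 1.23 and 1.30 CPM on day 5. Day 5 lay below both other groups, with a log2 fold change against 005 of -1.88 ± 0.22 (adjusted p = 1.2e-05). Pcdha3 had 3.24, 2.56 and 2.38 CPM in 005, 2.94, 3.31 and 2.56 CPM on day 2 and 0.623, 1.81 and 1.22 CPM on day 5, so day 5 lay below both other groups (-1.13 ± 0.34 against 005, adjusted p = 0.010). The call against 005 was lost without replicate 1 of 005 and without replicate 1 of day 5.

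Most gamma counts came from Pcdhgc3, a C-type isoform that many cell types express. Its share of all gamma CPM was 84.5% ± 1.20 in 005, 87.2% ± 1.39 on day 2 and 72.9% ± 0.485 on day 5 (SD, n = 3 each). Pcdhgc3 had 239.8, 239.8 and 192 CPM in 005, 239, 250.1 and 262 CPM on day 2 and 122.5, 115.7 and 120.8 CPM on day 5. Day 5 lay below both other groups, and the log2 fold change was -1.05 ± 0.06 against day 2 (adjusted p = 5.5e-08) and -0.89 ± 0.09 against 005 (adjusted p = 1.6e-06), the second just under the fold required. BC037039, on the other strand, had 91.4, 89.1 and 88.0 CPM on day 5 and 174.9, 174.4 and 139 CPM in 005, and its part in these values cannot be told apart.

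The other 20 gamma genes together summed to 40.9 ± 2.64 CPM in 005, 36.6 ± 3.58 CPM on day 2 and 44.6 ± 2.37 CPM on day 5. Pcdhgb6, singled out after its values were seen, led them per length with 23.9, 22.2 and 25.1 CPM on day 5 and 21.9, 18.6 and 18.4 CPM in 005, a log2 difference of 0.28 that missed the fold for a call. Pcdhgb7 and Pcdhga3 were called lower on day 5 against 005 at very low levels. Pcdhgb7 had 0.791, 1.02 and 1.30 CPM in 005, 0.905, 1.01 and 0.908 CPM on day 2 and 0.267, 0.164 and 0.244 CPM on day 5 (log2 fold change against 005 -2.15 ± 0.47, adjusted p = 0.0014). Pcdhga3 averaged 0.334 CPM on day 5 and 1.13 CPM in 005.

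Among the single genes, Pcdh9 and Pcdh18 were called higher in TDECs than in 005 on both days. Pcdh9, a delta-1 gene of neural tissue, had 49.0, 50.2 and 40.0 CPM in 005, 135.6, 137.6 and 109.8 CPM on day 2 and 106.5, 110.6 and 113.5 CPM on day 5. Every TDEC library lay above every 005 library, with log2 fold changes against 005 of 1.44 ± 0.12 on day 2 (adjusted p = 4.5e-06) and 1.26 ± 0.09 on day 5 (adjusted p = 7.4e-08). Pcdh18, a delta-2 gene whose protein binds the adaptor Dab1, had 16.1, 16.6 and 12 CPM in 005, 46.9, 40.1 and 45.8 CPM on day 2 and 30.5, 33.0 and 33.9 CPM on day 5. Its log2 fold changes against 005 were 1.55 ± 0.14 on day 2 (adjusted p = 8.3e-06) and 1.13 ± 0.12 on day 5 (adjusted p = 4.5e-06). Without replicate 3 of 005 the day 5 value was 0.995, just under the fold. Both genes had their highest mean on day 2. For Pcdh18 day 5 lay below every library of day 2 (log2 difference -0.435 ± 0.088, adjusted p = 0.0013), and for Pcdh9 day 2 and day 5 overlapped.

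Because these TDECs were grown at 1% oxygen, the promoters of both genes are shown with the core of the hypoxia response element, ACGTG or GCGTG on either strand (CACGT and CACGC when read from the other), in capitals. Pcdh10, which did not rise on day 5, is given beside them. The sequences are from RefSeq (GRCm38.p6, the mm10 assembly) and run from 250 bases before to 50 after the annotated start, for Pcdh9, of whose 2 listed starts the first is shown, at chr14:93890630-93890929 (minus strand), for Pcdh18 at chr3:49757267-49757566 (minus strand) and for Pcdh10 at chr3:45378148-45378447 (plus strand).
Pcdh9: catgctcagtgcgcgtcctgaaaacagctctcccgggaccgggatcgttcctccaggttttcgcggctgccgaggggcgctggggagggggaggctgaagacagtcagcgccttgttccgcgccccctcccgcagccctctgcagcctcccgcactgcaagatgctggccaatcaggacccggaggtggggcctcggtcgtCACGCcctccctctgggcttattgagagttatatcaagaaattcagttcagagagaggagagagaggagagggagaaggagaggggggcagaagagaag
Pcdh18: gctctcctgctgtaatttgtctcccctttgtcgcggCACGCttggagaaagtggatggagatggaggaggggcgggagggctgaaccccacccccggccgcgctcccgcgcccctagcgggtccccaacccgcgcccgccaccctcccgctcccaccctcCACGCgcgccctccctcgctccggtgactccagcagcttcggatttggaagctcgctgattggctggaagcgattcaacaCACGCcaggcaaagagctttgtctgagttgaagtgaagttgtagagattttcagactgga
Pcdh10: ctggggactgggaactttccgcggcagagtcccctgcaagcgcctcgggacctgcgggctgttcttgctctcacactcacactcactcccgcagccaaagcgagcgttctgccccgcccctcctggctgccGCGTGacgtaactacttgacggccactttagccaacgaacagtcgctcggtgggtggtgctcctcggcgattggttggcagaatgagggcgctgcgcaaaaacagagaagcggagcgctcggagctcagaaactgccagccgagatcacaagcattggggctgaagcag
The Pcdh18 window holds 3 matches, and those of Pcdh9 and Pcdh10 hold 1 each. Only single genes were counted: the clustered members, Pcdh1 and Pcdh12 were left out beforehand, and Pcdh11x had no promoter entry. A match was found in 6 of the 9 single genes counted, which is not a share for the whole family. Of all 32851 promoters of the same length 43.8% held a match, with overlapping matches on the 2 strands of CACGTG counted separately. Among the 9 are Pcdh17 with 3 matches, Pcdh15 with 2, in a window 722525 bases inside the deposited gene, and Pcdh7 with 1, and none was found in Pcdh8, Pcdh19 and Pcdh20. The 3 windows are rich in CpG, with 18, 23 and 24 CpG in the order printed against a median of 7 over all promoters.

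Pcdh15 had the largest log2 fold change of the single genes tested on day 5 against 005. This protein forms the tip links of hair cells in the inner ear, and its gene had 79.0, 78.4 and 68.0 CPM in 005, 14.8, 15.1 and 11.6 CPM on day 2, 7.03, 6.73 and 6.35 CPM on day 5 and no count in any MBMEC library. The groups did not overlap at any step. The log2 fold changes were -2.46 ± 0.12 on day 2 against 005 (adjusted p = 1.6e-07), -3.48 ± 0.10 on day 5 against 005 (adjusted p = 4.4e-11) and -1.03 ± 0.15 on day 5 against day 2 (adjusted p = 0.00012). The last is close to the fold required and was -0.98 to -0.99 when replicate 1 or 2 of day 2 or replicate 3 of day 5 was left out.

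Further single genes were also lowest or highest on day 2. Pcdh1, a delta-1 gene also known in airway epithelium, was lowest on day 2, with 39.0, 41.3 and 34.5 CPM in 005, 19.4, 26.0 and 23.9 CPM on day 2 and 49.0, 52.5 and 54.0 CPM on day 5. The groups were apart at both steps, and the log2 fold change on day 5 was 1.18 ± 0.10 against day 2 (adjusted p = 2.2e-06) and 0.45 ± 0.09 against 005 (adjusted p = 0.00053). Pcdh7, whose human counterpart binds the protein SET, was highest on day 2, with 38.9, 43.0 and 35 CPM in 005, 66.6, 69.6 and 69.9 CPM on day 2 and 45.3, 47.4 and 42.9 CPM on day 5. Pcdh17, which recruits the WAVE complex to contacts between axons, had 15.8, 17.2 and 14.2 CPM in 005, 25.7, 25.7 and 19.0 CPM on day 2 and 16.1, 16.0 and 14.7 CPM on day 5. Neither gene reached the fold for a call, with log2 differences of 0.80 and 0.56 on day 2 against 005 (adjusted p = 8.3e-05 and 0.010).

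Pcdh10, which guides axons of the forebrain, averaged 14.1 CPM in 005, 18.2 CPM on day 2 and 9.19 CPM on day 5, and its log2 difference of -0.97 on day 5 against day 2 just missed a call (adjusted p = 0.00022). Pcdh19, whose human counterpart is mutated in an epilepsy of females, averaged 7.04 CPM in 005, 8.12 CPM on day 2 and 10.6 CPM on day 5 (0.60 ± 0.14 on day 5 against 005, adjusted p = 0.0022). Pcdh11x stayed between 1.97 and 4.38 CPM in these 9 libraries. Pcdh8, an activity-induced gene of neurons, did not pass the filter on day 2, where it had 0.302, 0.144 and 0.165 CPM against 1.01, 0.511 and 0.865 CPM in 005. Pcdh12 and Pcdh20 had at most 3 and 4 counts in any library of these groups and were not tested among them.

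**Figure D4:**
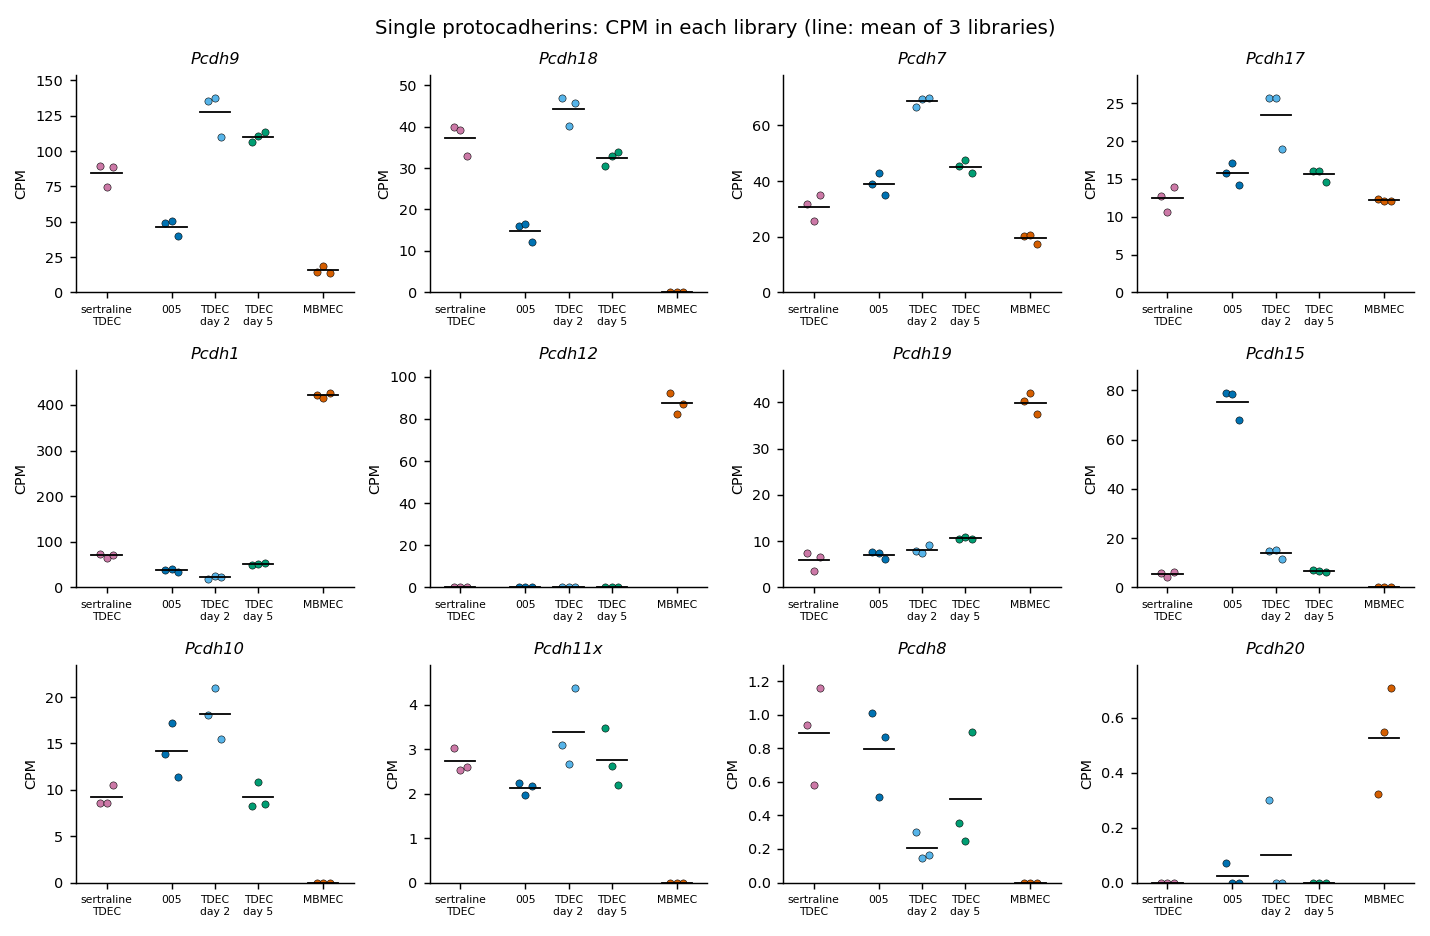
CPM of the 12 single protocadherins in each library (y axis, own scale per panel, starting at 0) by group (x axis); points are libraries and lines are means of 3. Pcdh9 and Pcdh18 are higher in all TDEC libraries than in 005, Pcdh15 falls to 6.35 to 7.03 CPM on day 5, and Pcdh1, Pcdh12 and Pcdh19 are highest in MBMECs.

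With sertraline a single protocadherin was called. Set against untreated TDECs, 0 of 39 tested members were called higher and 1 lower, where 1.82% of all genes were called higher and 3.26% lower. The lower one was the C-type gamma gene Pcdhgc5, with 1.74, 0.724 and 1.23 CPM with sertraline against 3.47, 2.13 and 2.93 CPM in untreated TDECs (log2 fold change -1.23 ± 0.32, adjusted p = 0.0070). Without replicate 2 of the treated group, which stood apart, its log2 fold change was -0.96 and no member was called. At an adjusted p under 0.05 without the fold, 5 further members were higher and 7 lower, which makes 13 of 39 where the share over all genes was 35.3%.

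Of these smaller differences, Pcdhga1 had 15.9, 11.7 and 14.7 CPM with sertraline against 9.88, 9.44 and 7.90 CPM without (log2 difference 0.60 ± 0.14, adjusted p = 0.0033). The antisense gene Gm37118, nested in its exon, had 6.22, 2.90 and 5.50 CPM with sertraline and 3.12, 3.04 and 2.61 CPM without. Within that nested stretch the pair cannot be told apart. Of the 3247 bases that Pcdhga1 shares with no gene on its strand, 2841 lie outside any antisense gene. Pcdh1 had 73.9, 64.5 and 72.2 CPM with sertraline against 49.0, 52.5 and 54.0 CPM (0.40 ± 0.07, adjusted p = 3e-04). Pcdh7 was lower at 31.9, 25.6 and 35 CPM against 45.3, 47.4 and 42.9 CPM (-0.58 ± 0.10, adjusted p = 0.00025), Pcdh9 at 89.5, 74.6 and 89.0 CPM against 106.5, 110.6 and 113.5 CPM (-0.42 ± 0.07, adjusted p = 0.00021), and Pcdh19 at 7.38, 3.48 and 6.66 CPM against 10.5, 10.8 and 10.5 CPM (-0.89 ± 0.20, adjusted p = 0.0024). In none of these 5 genes did the groups overlap. They were taken from the members with an adjusted p under 0.05, so this is not separate evidence. The treated libraries carry another title prefix than the untreated ones, and drug, day and a possible separate preparation cannot be told apart.

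MBMECs shared some protocadherins with TDECs, among them Pcdhgb6 and Pcdhb14, which were not called, and differed in many others. On day 5 against MBMECs, 24 of 40 tested members were called higher and 7 lower, where 28.1% of all genes were called higher and 20.8% lower. In 005 against MBMECs, 27 of 43 were higher and 6 lower, where the shares over all genes were 25.3% and 18.7%. Clustered members were 30 of the 40 and 33 of the 43 tested. They made up 18 of the 24 and 21 of the 27 called higher, and 4 of the 7 and 3 of the 6 called lower. Of the 10 single genes tested in each comparison, 6 were called higher and 3 lower. Both comparisons share the MBMEC libraries. Many of these members pass the filter only through the group in which they are high.

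The 3 single genes lower in TDECs were Pcdh12, Pcdh1 and Pcdh19. Pcdh12, first known as an endothelial junction protein, had 0.089, 0 and 0 CPM on day 5 and 0.144, 0.073 and 0.144 CPM in 005, against 92.3, 82.5 and 87.2 CPM in MBMECs. With 1 count over the day 5 libraries, MBMECs were 3120-fold higher, with a 95% counting interval of 560 to 123000. Pcdh1 was the most abundant single gene of MBMECs per length, at 47.9 ± 0.628 CPM per kb, and had 49.0, 52.5 and 54.0 CPM on day 5 against 422.4, 415.4 and 426.3 CPM in MBMECs (log2 fold change -2.96 ± 0.05, adjusted p = 7.5e-28). Pcdh19 had 10.5, 10.8 and 10.5 CPM on day 5 against 40.2, 42.0 and 37.4 CPM in MBMECs (-1.84 ± 0.09, adjusted p = 6.9e-17).

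Pcdh15, Pcdh10, Pcdh11x and Pcdh8 had no count in MBMECs, which at this depth allows a level of up to 0.0679 CPM over the group. Against that floor Pcdh15 was at least 98.7-fold higher on day 5 and at least 1110-fold higher in 005. For Pcdh10 the bounds were 136-fold and 208-fold, and for Pcdh11x 40.5-fold and 31.3-fold. Pcdh18 was nearly as restricted, with 30.5, 33.0 and 33.9 CPM on day 5 against 0.194, 0.0684 and 0.142 CPM in MBMECs (log2 fold change 7.87 ± 0.22, adjusted p = 3.4e-23). Pcdh9 was shared between the groups, with 106.5, 110.6 and 113.5 CPM on day 5 against 14.5, 18.6 and 13.5 CPM in MBMECs (2.89 ± 0.08, adjusted p = 7.3e-23), as was Pcdh7 (1.28 ± 0.08, adjusted p = 2.9e-14). Pcdh17 missed the fold for a call (log2 difference 0.42 ± 0.11, adjusted p = 9.9e-04), at 16.1, 16.0 and 14.7 CPM on day 5 against 12.4, 12.1 and 12.1 CPM in MBMECs. Pcdh20 was detected in MBMECs at 0.323, 0.547 and 0.709 CPM, with no count on day 5.

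In MBMECs most beta counts came from Pcdhb14 to Pcdhb17, with means of 11.05, 18.3, 38.9 and 12 CPM in that order, and Pcdhb18 to Pcdhb22 had means of 1.63 to 6.41 CPM. Pcdhb14 to Pcdhb22 gave 57.9% ± 1.29 of beta CPM on day 5, 42.3% ± 1.08 in 005 and 93.6% ± 0.608 in MBMECs, a boundary chosen after the values were seen. Pcdhb16 had 10.6, 9.69 and 10.7 CPM on day 5 against 40.8, 40.2 and 35.7 CPM in MBMECs (log2 fold change -1.85 ± 0.10, adjusted p = 1.5e-16), and Pcdhb15 had 1.78, 2.30 and 2.93 CPM against 17.9, 20.3 and 16.6 CPM (-2.89 ± 0.17, adjusted p = 1.8e-15). In the first stretch, 10 of the 11 genes tested were called higher on day 5 than in MBMECs and none lower. The shares over all genes were 28.1% and 20.8%, and some of these members pass the filter only through the TDECs. Pcdhb5 had 10.9, 9.44 and 11.5 CPM on day 5 against 1.16, 1.37 and 1.13 CPM in MBMECs (3.17 ± 0.20, adjusted p = 1.7e-14), and Pcdhb3 had 5.34, 7.30 and 6.19 CPM against 0.194, 0.137 and 0.283 CPM (4.95 ± 0.34, adjusted p = 7.5e-14).

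Alpha transcripts were absent from MBMECs apart from 1 count of Pcdha9 in replicate 2. Pcdhac2 was at least 19.0-fold higher on day 5 and at least 70.7-fold higher in 005, and Pcdha3 at least 40.2-fold higher in 005. In the gamma cluster Pcdhgc3 took 72.9% ± 0.485 of the CPM on day 5 and 82.5% ± 0.284 in MBMECs. Pcdhgb1 was lower at 0.267, 0 and 0.0814 CPM on day 5 against 2.26, 2.33 and 2.83 CPM in MBMECs (log2 fold change -4.29 ± 0.51, adjusted p = 1.2e-08). Pcdhga1 was higher at 9.88, 9.44 and 7.90 CPM against 2.06, 3.15 and 2.91 CPM (1.81 ± 0.19, adjusted p = 7.3e-10), and Pcdhgc5 at 3.47, 2.13 and 2.93 CPM against 0.387, 0.342 and 0.425 CPM (2.92 ± 0.36, adjusted p = 1.8e-08).

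Per length, the order of the single genes differed between the groups. The length used is that of all annotated exons of a gene, not of the transcript expressed. By CPM alone Pcdh15 was the highest single gene in 005, at a mean of 75.1 CPM against 46.4 CPM for Pcdh9. In 005 Pcdh9 led with 6.85 ± 0.824 CPM per kb, followed by Pcdh1 (4.35 ± 0.397), Pcdh7 (3.68 ± 0.376), Pcdh15 (3.16 ± 0.259) and Pcdh18 (2.78 ± 0.465), where each neighbour from Pcdh1 to Pcdh18 lies near the spread of the next. On day 5 Pcdh9 led with 16.2 ± 0.520 CPM per kb, followed by Pcdh18 (6.06 ± 0.328) and Pcdh1 (5.89 ± 0.292), which did not differ beyond their spread, and Pcdh7 (4.26 ± 0.215), with Pcdh15 at 0.282 ± 0.0144. In MBMECs Pcdh1 led, followed by Pcdh12 (14.4 ± 0.806), Pcdh19 (3.81 ± 0.221), Pcdh9 (2.29 ± 0.393) and Pcdh7 (1.83 ± 0.169). Across all members Pcdhgc3 was the highest in every group, with 35.4 CPM per kb on day 5 and 57.7 ± 3.71 CPM per kb in MBMECs, where Pcdh1 had 47.9 ± 0.628. Its counts cannot be told apart from those of BC037039, so its place above Pcdh1 in MBMECs is uncertain.

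Genes known to act on the clustered promoters were listed beside the members. Of 20 such genes, all tested, 0 were called on day 2 against 005, and on day 5 against 005 0 were higher and 3 lower, with a list median of -0.36, where 10.4% of all genes were called lower. The 3 were Dnmt1, the maintenance DNA methyltransferase, and the cohesin subunits Smc1a and Rad21. Dnmt1 averaged 68.5 CPM on day 5 and 381 CPM in 005 (log2 fold change -2.46 ± 0.09, adjusted p = 1.6e-10). Smc1a averaged 90.6 CPM on day 5 and 246 CPM in 005 (-1.43 ± 0.08, adjusted p = 7.7e-09), and Rad21 265 CPM on day 5 and 558 CPM in 005 (-1.06 ± 0.08, adjusted p = 1.2e-07). These 3 were also lower on day 5 than on day 2, and their part in the lower clustered levels was not tested. None of the 20 was called with sertraline. Against MBMECs 2 of the 20 were higher and 3 lower on day 5, where 28.1% of all genes were higher and 20.8% lower. Among them were Dnmt3a (1.69 ± 0.05, adjusted p = 8.4e-22) and Dnmt3b (-1.47 ± 0.23, adjusted p = 1.2e-06).

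Of 28 genes whose products process protocadherins or signal from them, 1 was higher and 1 lower on day 2 against 005. The shares over all genes on day 2 were 5.35% and 4.48%. On day 5 against 005, 1 was higher and 3 lower of 28 tested, where the shares over all genes were 13.1% and 10.4%. The kinase Ptk2b, which binds the cytoplasmic part of alpha and gamma proteins, averaged 2.54 CPM on day 5 and 0.288 CPM in 005 (log2 fold change 3.11 ± 0.43, adjusted p = 4.3e-05) and 0.70 CPM with sertraline against 2.54 CPM without (-1.88 ± 0.32, adjusted p = 0.00031), the only listed partner called with the drug. Dab1, the adaptor bound by Pcdh18, was also called on day 5, averaging 14.9 CPM on day 5 and 32.2 CPM in 005 (-1.10 ± 0.10, adjusted p = 1.1e-06). Against MBMECs 8 were higher and 6 lower on day 5 of 27 tested, where the shares over all genes were 28.1% and 20.8%. Among the WAVE complex genes of the list, Wasf1, Wasf3, Cyfip2 and Abi2 were called higher, Wasf2 and Cyfip1 lower, and Nckap1, Abi1 and Brk1 neither. Wasf3 averaged 142 CPM on day 5 and 0.0456 CPM in MBMECs, and Cyfip1 averaged 109 CPM on day 5 and 295 CPM in MBMECs.

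Of 37 other members of the cadherin superfamily, 21 were tested on day 5 against 005, with 5 higher and 3 lower, where 13.1% of all genes were higher and 10.4% lower. Cdh13, a cadherin without a cytoplasmic part, averaged 189 CPM on day 5 and 49.2 CPM in 005 (log2 fold change 1.95 ± 0.09, adjusted p = 1.8e-09), and Cdh22 averaged 13 CPM on day 5 and 48.5 CPM in 005 (-1.89 ± 0.14, adjusted p = 1.2e-07). Cdh23, the tip-link partner of Pcdh15, averaged 4.45 CPM on day 5 and 12.6 CPM in 005 (-1.49 ± 0.16, adjusted p = 4.3e-06) and was lower with Pcdh15 on day 2 as well (-1.95 ± 0.18, adjusted p = 1.4e-05). With sertraline 1 was higher and 3 lower of 21, where 1.82% of all genes were higher and 3.26% lower. Among the 3 was Cdh19, at 22.2 CPM with sertraline and 47.2 CPM without (-1.12 ± 0.08, adjusted p = 5.1e-08). Cdh5, the cadherin that defines endothelial junctions, averaged 0.0821 CPM on day 5 and 2198 CPM in MBMECs.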

How the data were processed

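Poly(A) RNA of 15 libraries was prepared with a strand-specific kit and sequenced by the authors. Per the study's methods and the submitters' processing notes, reads were demultiplexed with bcl2fastq 2.19, trimmed with Trimmomatic 0.38, aligned to mm10 with HISAT2 2.1.0 and counted per gene with featureCounts 1.6.3, and the deposited values are raw counts. Each comparison was fitted on its own 6 libraries with edgeR 4.0.16 (R 4.3.3): TMM scaling, filterByExpr with a minimum count of 10, the quasi-likelihood test, and Benjamini-Hochberg adjustment over all genes that passed. A gene was called at an adjusted p under 0.05 and an absolute log2 fold change above 1. The test was tried on simulated data first. CPM was scaled by TMM over all 15 libraries, and CPM per kb used the exon bases of GENCODE M21 that no other gene shares on the same strand. Where a group had no count, a floor of 3 counts over the group was used, and floors and intervals cover counting error only.

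The members and the gene lists were chosen with earlier results of these data known. Named in the text are the single genes that reached 10 counts somewhere, the member of each cluster with the highest mean CPM in each group, and in each comparison up to 4 called members of each cluster per direction by smallest p. From each other list it names up to 3 called genes per direction and comparison. Outside that rule fall Pcdhgb6, the WAVE complex genes given together and cell type markers. So do genes named only for a position, an antisense partner, a shared symbol or a call that moved with the processing. Alternatives were DESeq2 size factors, plain library totals, no filter, DESeq2 1.42.0, all 15 libraries in a single fit, the replicate number as a block, and leaving out each library in turn.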

Additional observations from a re-analysis of the deposited data

Results flagged for a closer look

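Within the clusters, 2 genes that are not members carried a signal outside the comparisons made above. Pcdhgb8, a gamma gene annotated as a polymorphic pseudogene, had 824 counts over the 3 MBMEC libraries. It averaged 6.77 ± 0.672 CPM on day 5 and 4.56 ± 0.524 CPM in 005, against 18.7 ± 1.49 CPM in MBMECs (SD, n = 3 each). Gm38225, annotated antisense inside an exon of Pcdha4, had 41 counts over the 3 libraries of 005 and 18 over those of day 5, and none in MBMECs. Pcdha4 itself had 1 count over all libraries, but only 8.56% of its exon bases are shared with no other gene on its strand. The pair cannot be told apart, so the counts of Gm38225 may come from either gene.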

How the results depend on the processing

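The number of protocadherins called moved by over 1.5 times in 2 comparisons. On day 2 against 005 it was 5 in place of 3 with no filter and with all 15 libraries in the fit, and 3 to 5 with a library left out. With sertraline it was 1, and 0 to 2 with a library left out: 0 without replicate 2 of the treated group and 2 without replicate 1. Leaving out a library gave 14 to 17 calls on day 5 against 005, 13 to 17 on day 5 against day 2, 30 to 32 on day 5 against MBMECs and 31 to 34 in 005 against MBMECs.

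Among log2 fold changes, 3 near 0 changed sign. Pcdh17 on day 5 against 005 was 0.005 with DESeq2 size factors, 0.013 with all 15 libraries and -0.079 to 0.06 with a library left out (-0.003 as reported). With sertraline Pcdh10 was 0.04 and Pcdh11x 0.023 with plain library totals, and with a library left out Pcdh10 was -0.131 to 0.106 and Pcdh11x -0.194 to 0.147. The cause was not tested. Of 1234 alternative values for 103 fold changes, 1189 kept their direction and side of the threshold, and 0 called protocadherins changed sign. Plain library totals shifted the median of all genes by -0.13 on day 5 against 005 and by 0.212 in 005 against MBMECs.

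With the replicate number as a block the counts were 3, 15, 17, 1, 31 and 33, as without it. Deviations of libraries with the same number had correlations of -0.079 to 0.076, so the numbers were not taken as pairing the libraries. Genes at a few counts per library, such as most alpha members, could not be compared at this depth.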
